A study of Mus musculus with 8 samples.

Results

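Costimulatory receptors are surface proteins through which a T cell that has met its antigen receives a second signal. The 8 genes described here encode such receptors: Tnfrsf4, Tnfrsf9, Tnfrsf18, Tnfrsf1b and Cd27 of the tumour necrosis factor (TNF) receptor superfamily, and Cd28, Icos and Cd226 of the immunoglobulin superfamily. They were chosen by name, and their rows were read in all 8 libraries. They are 8 of the 24976 gene symbols in the count table, and all 8 were among the 12742 genes with enough counts to be tested.

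CD28 is present on resting T cells and binds CD80 and CD86, and its signal goes with that of the T cell receptor from the start of activation. ICOS is its relative and appears after activation, while CD226, also called DNAM-1, binds CD155 (encoded by Pvr) and CD112. CD226 shares CD155 with the inhibitory receptors TIGIT and CD96. The TNF receptor superfamily members recruit TRAF adaptors, which lead to NF-kB, and OX40 (Tnfrsf4), 4-1BB (Tnfrsf9) and GITR (Tnfrsf18) are known for rising on activated T cells and supporting their survival and division. CD27 is already present on naive T cells, and TNFR2 (Tnfrsf1b) binds TNF and lymphotoxin alpha.

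Bulk RNA was sequenced from naive CD8+ T cells of mice after culture with 2 µg/ml of an antibody against CD3, 1 µg/ml of an antibody against CD28 and 10 ng/ml of IL2. The tested cells, labelled dKO, came from Cd8Cre NR4a1 flox/flox NR4a2 flox/flox mice, whose Cd8-driven Cre recombinase acts on the floxed genes of the nuclear receptors NR4A1 and NR4A2. The control cells, labelled WT, came from wild-type littermates and received the same antibodies and IL2. There were 4 groups of 2 libraries each: dKO at 48 h, WT at 48 h, dKO at 24 h and WT at 24 h. The age of the mice is not stated, nor whether the 2 libraries of a group came from separate mice, so p-values measure only the spread between these libraries, which may be technical. In bulk samples, fewer cells with a transcript and less of it per cell cannot be told apart.

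Total counts ran from 5000952 to 21686236 per library, and the receptor genes had 181 to 3582 counts in a library. The part of counting noise in their replicate differences and in narrow gaps between groups was not tested. Levels are given as counts per 1e6 counts (CPM) after TMM scaling, which corrects for differences in library composition; 3 counts correspond to 0.158 to 0.558 CPM. Replicates correlated at r = 0.985 to 0.989 across genes in 3 groups and at 0.965 in WT at 48 h. The 4 libraries labelled dKO had 75.5 to 143 CPM of Nr4a2 and the 4 WT libraries 24.6 to 59.9 CPM. For Nr4a1 it was 506 to 669 CPM in those labelled dKO and 276 to 881 CPM in WT. These counts therefore do not check the deletion, and a count per gene can include exons that a floxed allele keeps. Directions are stated for the libraries labelled dKO. Genotype also moved with sex-linked RNA: Xist had 0.656 to 1.67 CPM in libraries labelled dKO against 387 to 818 CPM in WT, and 4 Y-linked genes summed to 135 to 159 CPM in libraries labelled dKO against 1.32 to 2.00 CPM in WT. In every genotype comparison, genotype and these differences cannot be told apart.

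Markers of the labelled cell type were present. Cd8a had 656 to 683 CPM in libraries labelled dKO against 510 to 853 CPM in WT, and Cd4 had 0 to 2 counts per library. Of the markers of other cells, 6 of 7 B cell genes were in the table. They summed to 4.46 to 5.07 CPM in libraries labelled dKO and 5.13 to 7.17 CPM in WT. Cd79b gave most of this sum in each library, and Cd79a and Ms4a1 were at 0 in all but WT replicate 2 at 24 h. The 8 of 9 myeloid or dendritic genes summed to 6.55 to 7.93 CPM in libraries labelled dKO at 48 h and to 12.3 to 15.2 CPM in WT at 48 h, where Cd14 gave most of it, with Lyz2 at 0 in all libraries. At 24 h the order was the opposite, with 6.88 to 7.66 CPM in libraries labelled dKO and 5.43 to 5.90 CPM in WT. The 3 of 5 NK or gamma delta genes summed to at most 0.298 CPM, with Ncr1 and Klra8 at 0. The 5 CD4 or regulatory genes summed to 382 to 439 CPM in libraries labelled dKO and 402 to 559 CPM in WT, nearly all from Il2ra, which activated CD8+ cells also express. The 5 red cell or platelet genes summed to at most 5.13 CPM. The part of these markers in the results was not tested.

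Sequence before the start of transcription was available in RefSeq (GRCm38.p6) for 5 of the 8 genes, as 6 windows of 250 bases before to 50 bases after a start, since Tnfrsf9 has 2 starts. The 250 bases before the start are shown for Tnfrsf4, the one receptor gene called higher in the libraries labelled dKO at both times, for its neighbour Tnfrsf18, and for the second start of Tnfrsf9. All 3 lie on the plus strand of chromosome 4 and are written 5′ to 3′ at chr4:156013445-156013694 for Tnfrsf4, chr4:156026072-156026321 for Tnfrsf18 and chr4:150927749-150927998 for Tnfrsf9. Capitals mark matches to the searched motifs: TTTTCC, which is GGAAAA on the other strand, in Tnfrsf18, and TGAGTCA in Tnfrsf9.
Tnfrsf4: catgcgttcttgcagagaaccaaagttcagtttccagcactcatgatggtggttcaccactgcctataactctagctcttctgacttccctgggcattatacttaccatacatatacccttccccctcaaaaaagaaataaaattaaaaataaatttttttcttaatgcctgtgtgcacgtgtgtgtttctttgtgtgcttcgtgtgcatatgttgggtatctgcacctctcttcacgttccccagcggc
Tnfrsf18: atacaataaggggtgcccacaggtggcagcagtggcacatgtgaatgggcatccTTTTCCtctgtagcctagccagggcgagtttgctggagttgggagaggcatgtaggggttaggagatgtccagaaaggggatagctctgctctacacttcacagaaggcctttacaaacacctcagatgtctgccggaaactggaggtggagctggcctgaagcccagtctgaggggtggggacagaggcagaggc
Tnfrsf9: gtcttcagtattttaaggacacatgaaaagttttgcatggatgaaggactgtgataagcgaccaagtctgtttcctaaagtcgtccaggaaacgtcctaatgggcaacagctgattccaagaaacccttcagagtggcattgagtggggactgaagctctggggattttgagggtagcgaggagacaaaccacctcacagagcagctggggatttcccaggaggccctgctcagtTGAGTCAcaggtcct

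Both strands of the 6 windows were searched for 5 motifs, over all 300 bases. The NBRE bound by NR4A receptors (AAAGGTCA), the cyclic AMP response element (TGACGTCA) and an NF-kB motif (GGGANTTTC) had no match in any of the 6, and they occur in 1.51%, 1.79% and 1.11% of the 32851 windows in the RefSeq table. The NF-kB search covered these letters only, not other forms of the motif, so ggggatttccc in the second window of Tnfrsf9 was not counted. The AP-1 motif (TGANTCA, in 7.81% of windows) matched at position -15 from the second start of Tnfrsf9. The NFAT core (GGAAAA, in 23.4% of windows) matched in Tnfrsf18 at -196, in Cd27 at -52 and before the first start of Tnfrsf9 at -138. The window of Tnfrsf4 lies wholly before the start of the gene in the GENCODE M21 annotation, and it held none of the 5. In that annotation both windows of Tnfrsf9 lie inside the gene, which spans 150914562 to 150946102. The window of Tnfrsf18 spans the annotated start of its gene at 156026164. A match describes the letters of the window and is not shown to be a bound site.

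**Figure D1:**
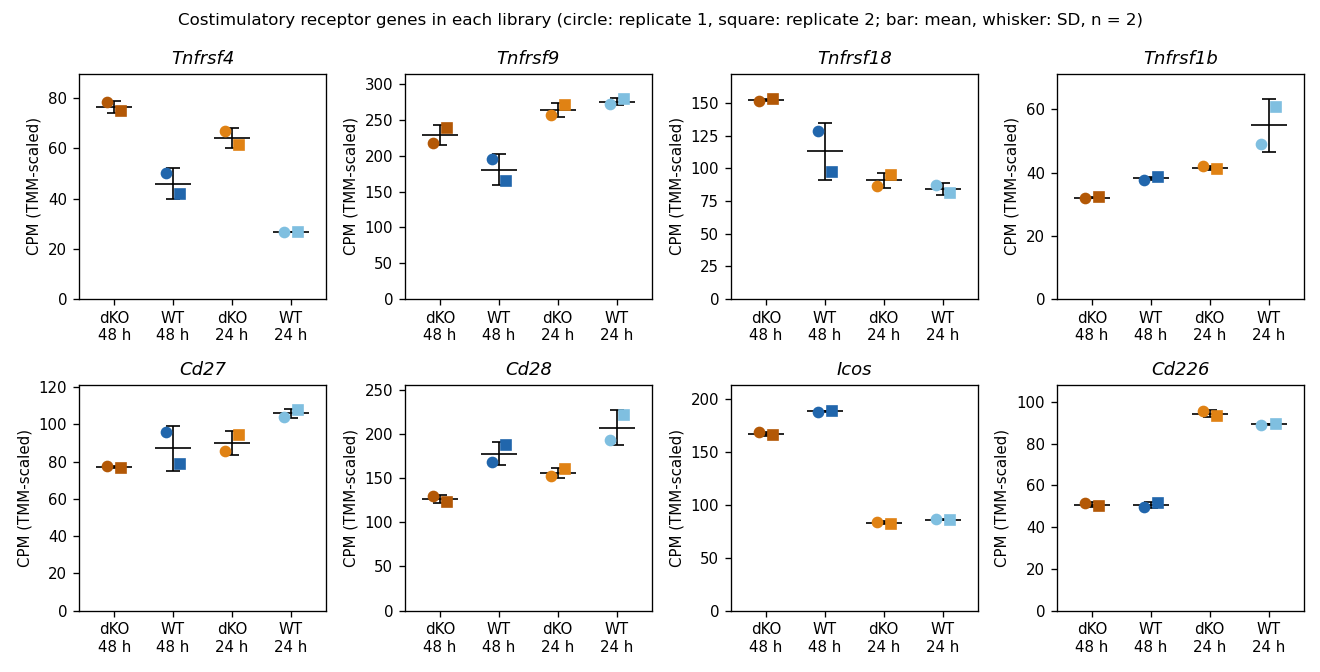
TMM-scaled CPM of each receptor gene (vertical axes, each from 0) in each library (points) and group mean (bars) with SD (whiskers, n = 2), for dKO and WT at 48 h and at 24 h. Tnfrsf4 spans 75.0 to 78.3 CPM in the libraries labelled dKO at 48 h and 61.3 to 67.1 CPM at 24 h, above all 4 WT libraries, while Icos and Cd226 separate the libraries by time.

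Whether the genotype label goes with the level of these receptors was asked at each time and over both. Tnfrsf4 was higher in the libraries labelled dKO at both times, and Cd28 was lower in the comparison over both times. Of the 8 receptor genes, 1 was called at 48 h, 1 at 24 h and 2 in the comparison over both. A gene was called at a Benjamini-Hochberg adjusted p below 0.05 in edgeR's quasi-likelihood F test over all tested genes. The comparisons called 11.2% of all tested genes at 48 h, 0.432% at 24 h and 7.8% when both times were joined, so the count at 48 h is near the background.

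Tnfrsf4 encodes OX40, which binds OX40L (Tnfsf4) and sustains effector and memory T cells. It had 78.3 and 75.0 CPM in the libraries labelled dKO at 48 h, against 50.2 and 41.7 CPM in WT at 48 h. At 24 h it had 67.1 and 61.3 CPM in the libraries labelled dKO, against 26.6 and 26.6 CPM in WT. All 4 libraries labelled dKO lay above all 4 WT libraries, and the 4 groups did not overlap: dKO at 48 h was highest, then dKO at 24 h, WT at 48 h and WT at 24 h. The log2 fold change was 0.75 at 48 h (SE 0.14, 95% interval 0.42 to 1.07, adjusted p = 0.0162) and 1.27 at 24 h (SE 0.15, 0.94 to 1.61, adjusted p = 0.00557), a 2.42-fold difference at 24 h. By p it stood at rank 358 of the tested genes at 48 h and rank 19 at 24 h.

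Over both times the difference of Tnfrsf4 was 1.01 on the log2 scale (SE 0.10, adjusted p = 0.00127), and it was called in all 14 alternatives, including each left-out library. The single-time calls rested on fewer libraries. At 48 h the call was lost without replicate 1 or 2 of dKO at 48 h (adjusted p = 0.139 and 0.191) and when the 48 h libraries alone were fitted (0.0894). At 24 h it was lost without replicate 1 or 2 of dKO at 24 h (0.129 and 0.0507) or of WT at 24 h (0.162 and 0.147). The log2 fold change of Tnfrsf4 stayed between 0.62 and 0.93 at 48 h and between 1.20 and 1.33 at 24 h in all of these.

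Tnfrsf18 lies 9551 bases after Tnfrsf4 on the same strand with 0 protein-coding genes between them (chromosome 4: 156026164 to 156028895 and 156013843 to 156016612 in GENCODE M21, GRCm38, which is the build mm10). It encodes GITR, the receptor of GITRL, found on activated and regulatory T cells. It had 152 and 153 CPM in the libraries labelled dKO at 48 h, against 129 and 97.5 CPM in WT at 48 h. At 24 h it had 86.5 and 95.0 CPM in the libraries labelled dKO, against 87.7 and 81.1 CPM in WT. The genotypes overlapped at 24 h and did not at 48 h, where both WT libraries were lower but far apart.

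Tnfrsf18 was not called in either comparison, at a log2 fold change of 0.43 at 48 h (SE 0.16, 0.07 to 0.80, adjusted p = 0.103) and 0.10 at 24 h (SE 0.16, -0.26 to 0.47, adjusted p = 0.935). At 48 h it was called without WT replicate 1 (0.63, adjusted p = 0.000951) and with scaling by total counts alone (0.62, adjusted p = 0.0272). Across the 8 libraries its log2 CPM correlated with that of Tnfrsf4 at r = 0.678, as a description of libraries that share groups and scaling. The 2 replicates of WT at 48 h differed by 0.40 on the log2 scale in Tnfrsf18, the largest replicate difference of any receptor gene.

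Tnfrsf9 (chromosome 4: 150914562 to 150946102, plus strand) encodes 4-1BB, the receptor of 4-1BBL and a marker of T cells recently stimulated through their antigen receptor. It had 219 and 238 CPM in the libraries labelled dKO at 48 h, against 196 and 165 CPM in WT at 48 h. The 24 h values were 257 and 271 CPM in the libraries labelled dKO, against 272 and 279 CPM in WT. The libraries labelled dKO thus lay above WT at 48 h and below it at 24 h, narrowly, and the genotypes did not overlap at either time. Tnfrsf9 was not called: the log2 fold change was 0.34 at 48 h (SE 0.15, -0.0036 to 0.69, adjusted p = 0.154) and -0.06 at 24 h (SE 0.15, -0.40 to 0.28, adjusted p = 0.960). At 48 h it was called without WT replicate 1 (0.45, adjusted p = 0.0157) and with scaling by total counts alone (0.52, adjusted p = 0.0495).

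Tnfrsf1b (chromosome 4: 145213463 to 145246870, minus strand) encodes TNFR2, the TNF receptor without a death domain, which costimulates T cells. It had 32.0 and 32.2 CPM in the libraries labelled dKO at 48 h, against 37.8 and 38.5 CPM in WT at 48 h. At 24 h it had 42.0 and 41.1 CPM in the libraries labelled dKO, against 49.0 and 60.8 CPM in WT. Both libraries labelled dKO were below both WT libraries at each time. The differences were not called, at -0.25 on the log2 scale at 48 h (SE 0.15, adjusted p = 0.273), -0.40 at 24 h (SE 0.15, adjusted p = 0.542) and -0.33 over both times (SE 0.11, adjusted p = 0.0889). Over both times the gene was called without WT replicate 1 or 2 at 48 h (adjusted p = 0.00703 and 0.0468).

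Cd27 (chromosome 6: 125232622 to 125237010, minus strand) encodes the receptor of CD70 and supports the survival of primed T cells. It had 77.6 and 76.7 CPM in the libraries labelled dKO at 48 h, against 95.7 and 78.4 CPM in WT at 48 h. Its 24 h values were 85.4 and 94.4 CPM in the libraries labelled dKO, against 104 and 108 CPM in WT. It too was lower in the libraries labelled dKO at both times without overlap, although WT replicate 2 at 48 h was close to them. The log2 fold change was -0.17 at 48 h (SE 0.15, adjusted p = 0.445) and -0.24 at 24 h (SE 0.15, adjusted p = 0.871), and neither was called. Over both times it was -0.20 (SE 0.10, adjusted p = 0.230), and it was called there without WT replicate 2 at 48 h (-0.28, adjusted p = 0.0363).

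Cd28 lies on chromosome 1 (60716800 to 60773359, plus strand), with Icos 204567 bases after it (60977927 to 61000320) and 1 protein-coding gene between. One of the antibodies in the culture binds its protein. Cd28 had 130 and 123 CPM in the libraries labelled dKO at 48 h, against 169 and 187 CPM in WT at 48 h. At 24 h there were 152 and 160 CPM in the libraries labelled dKO, against 193 and 221 CPM in WT. All 4 libraries labelled dKO lay below all 4 WT libraries, an arrangement opposite to that of Tnfrsf4.

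Over both times Cd28 fell by 0.45 on the log2 scale in the libraries labelled dKO (SE 0.10, adjusted p = 0.0302, rank 669 by p). At single times it was not called, at -0.49 at 48 h (SE 0.15, -0.83 to -0.16, adjusted p = 0.0599) and -0.41 at 24 h (SE 0.15, -0.74 to -0.08, adjusted p = 0.513). The call over both times was lost without replicate 1 or 2 of dKO at 48 h (adjusted p = 0.13 and 0.165), of dKO at 24 h (0.183 and 0.136) or of WT at 24 h (0.0638 and 0.0775), and with scaling by total counts alone (0.0754). At 48 h Cd28 was called without WT replicate 1 (adjusted p = 0.00238) and among genes with a mean of at least 50 counts (0.0396).

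Icos encodes a relative of CD28 that binds ICOSL and signals mainly through phosphoinositide 3-kinase. It had 169 and 166 CPM in the libraries labelled dKO at 48 h, against 188 and 189 CPM in WT at 48 h. The values at 24 h were 83.9 and 82.0 CPM in the libraries labelled dKO, against 86.3 and 85.6 CPM in WT. The genotypes did not overlap, but the gaps were small beside the gap between the times. The log2 fold change by genotype was -0.17 at 48 h (SE 0.13, -0.46 to 0.12, adjusted p = 0.382) and -0.05 at 24 h (SE 0.13, -0.35 to 0.25, adjusted p = 0.961).

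Cd226 (chromosome 18: 89176967 to 89272229) encodes DNAM-1, an adhesion receptor that costimulates CD8+ T cells and NK cells. It had 51.7 and 49.9 CPM in the libraries labelled dKO at 48 h, against 49.5 and 51.5 CPM in WT at 48 h. The corresponding 24 h values were 95.5 and 93.3 CPM in the libraries labelled dKO, against 88.9 and 89.4 CPM in WT. The genotypes overlapped at 48 h and lay close together at 24 h. The 95% interval of the log2 difference was -0.28 to 0.30 at 48 h and -0.20 to 0.37 at 24 h, and neither was called (adjusted p = 0.978 and 0.933).

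**Figure D2:**
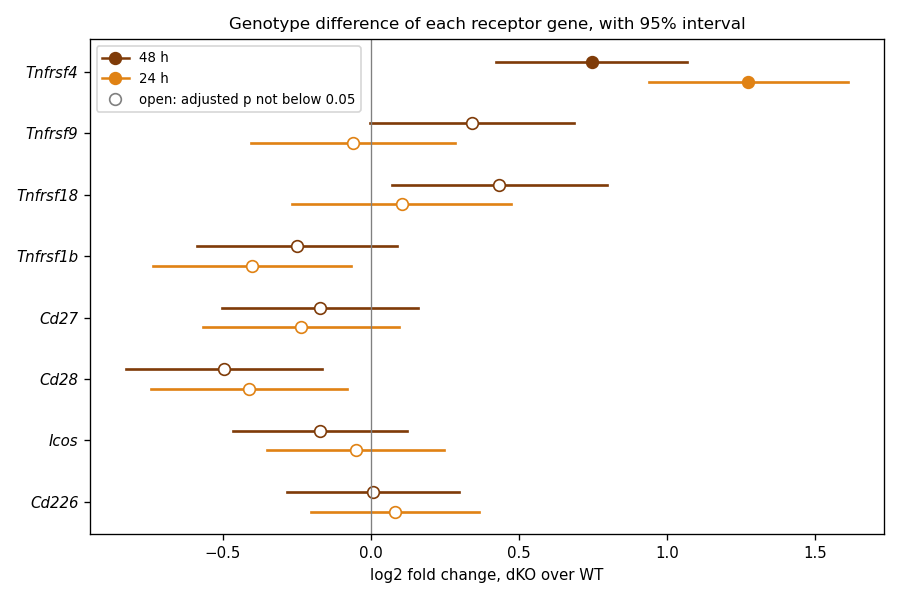
Log2 fold change of each receptor gene, dKO over WT, at 48 h and at 24 h, with the 95% interval from edgeR. Open symbols are not called; only Tnfrsf4 is called, at 0.75 and 1.27, while Cd28 lies at -0.49 and -0.41.

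At 48 h both libraries labelled dKO lay above both WT libraries for 3 receptor genes and below them for 4, and 1 overlapped, where 28.3% of all tested genes lay above and 28.6% below (56.9% in all). At 24 h they lay above for 2 and below for 5, and 1 overlapped, where 24.3% of all tested genes lay above and 20.6% below (44.9% in all). The median log2 fold change of the 8 was -0.08 at 48 h and -0.06 at 24 h, against -0.03 and 0.0074 over all tested genes. The receptors thus had no common direction by genotype.

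The difference between the genotype effects at 48 h and at 24 h was tested as an interaction. In edgeR 0 of the 8 receptor genes and 0% of all tested genes were called, while 1575 genes (12.4%) had an unadjusted p below 0.05, and DESeq2 also called 0. Tnfrsf4 had the largest interaction of the receptors, -0.53 on the log2 scale (SE 0.21, unadjusted p = 0.0293, adjusted p = 0.375). The smaller genotype difference of Tnfrsf4 at 48 h than at 24 h thus did not pass over all genes. Without WT replicate 1 at 48 h, Tnfrsf9 (0.53, adjusted p = 0.0429) and Tnfrsf18 (0.54, adjusted p = 0.0245) were called for the interaction, and 3459 genes in all.

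Over time, Icos was higher and Cd226 lower at 48 h than at 24 h in both genotypes. Of the 8 receptor genes, 3 were called between the times in the libraries labelled dKO and 5 in WT, where 3.63% and 11.4% of all tested genes were called. At 48 h, 3 of the 8 lay above and 5 below their 24 h level without overlap in each genotype. Of all tested genes 32.8% lay above and 33.5% below in the libraries labelled dKO (66.3% in all), and 22.7% above and 24.4% below in WT (47.1% in all). The signs were the same in both genotypes for all 8, though the 2 time comparisons come from 1 fit with a shared spread.

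Icos rose by 1.01 on the log2 scale in the libraries labelled dKO (SE 0.13, adjusted p = 0.00418) and by 1.13 in WT (SE 0.13, adjusted p = 0.00221), a 2.02-fold and a 2.19-fold rise. Cd226 fell by 0.90 in the libraries labelled dKO (SE 0.13, adjusted p = 0.00663) and by 0.82 in WT (SE 0.13, adjusted p = 0.00283). Across the 8 libraries the log2 CPM of these 2 genes correlated at r = -0.992, a description of libraries that fall into 2 times. In the libraries labelled dKO both calls were lost when any 1 of the 4 libraries labelled dKO was left out (adjusted p = 0.0775 to 0.108 for Icos, 0.0894 to 0.152 for Cd226). In WT both held without any single library and were lost when the WT libraries alone were fitted (0.0657 and 0.0736).

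Tnfrsf18 rose in the libraries labelled dKO by 0.75 (SE 0.16, adjusted p = 0.0396), with 152 and 153 CPM at 48 h against 86.5 and 95.0 CPM at 24 h. In WT it stood at 0.42 (SE 0.16, adjusted p = 0.146), and 0.60 without WT replicate 2 at 48 h (adjusted p = 0.00377). The call in the libraries labelled dKO was lost with a replicate block (0.0508), with scaling by total counts alone (0.0668), and without any 1 of the libraries labelled dKO or of WT at 24 h (0.059 to 0.327). Tnfrsf4 rose in WT by 0.78 (SE 0.15, adjusted p = 0.00795) and stood at 0.25 in the libraries labelled dKO (SE 0.14, -0.07 to 0.57, adjusted p = 0.314). Its WT call was lost without replicate 1 or 2 of WT at 24 h (0.0732 and 0.0922), with scaling by total counts alone (0.0916) and with the WT libraries alone (0.0937).

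Tnfrsf9 fell over time in WT by 0.61 (SE 0.15, adjusted p = 0.0310), and Tnfrsf1b fell there by 0.52 (SE 0.15, adjusted p = 0.0499). In the libraries labelled dKO their log2 fold changes were -0.21 (adjusted p = 0.435) and -0.37 (adjusted p = 0.183). The WT call of Tnfrsf9 was lost in 7 of 15 alternatives: without any 1 of the 6 libraries other than WT at 48 h (adjusted p = 0.0811 to 0.113) and with the WT libraries alone (0.228). That of Tnfrsf1b was lost in 11 of 15, among them the same 6 left-out libraries (0.0581 to 0.306) and DESeq2 (0.163). Cd27 was not called, at -0.22 in the libraries labelled dKO and -0.29 in WT, nor was Cd28, at -0.30 and -0.22. In WT, Cd27 was called without WT replicate 1 at 48 h (-0.42, adjusted p = 0.0157), and with scaling by total counts alone both Cd27 (-0.65, adjusted p = 0.0159) and Cd28 (-0.59, adjusted p = 0.0321) were called.

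**Figure D3:**
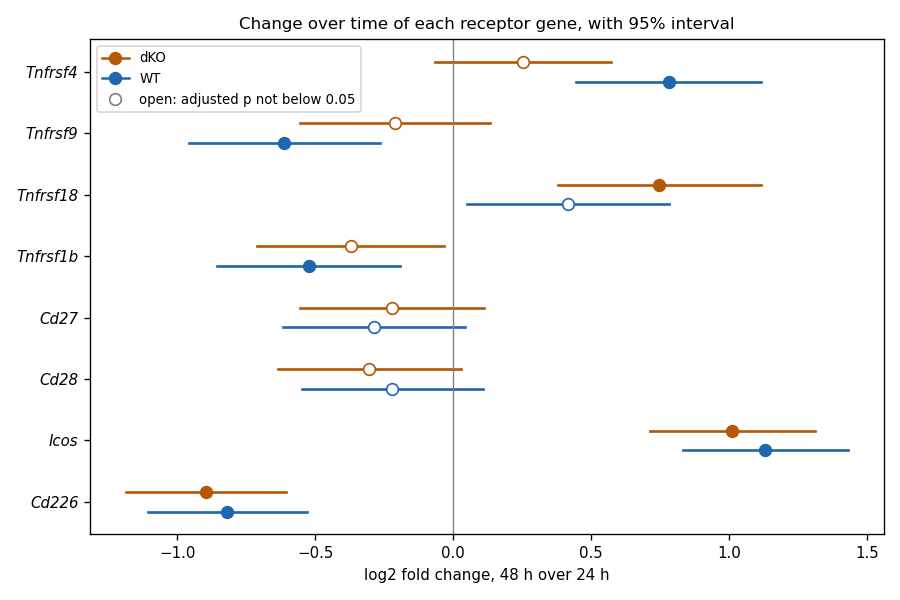
Log2 fold change of each receptor gene, 48 h over 24 h, in libraries labelled dKO and in WT, with the 95% interval from edgeR. Open symbols are not called; Icos lies at 1.01 and 1.13 and Cd226 at -0.90 and -0.82.

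The libraries of WT at 48 h differed more from each other than those of the other groups. The median absolute log2 difference between replicates over all tested genes was 0.364 there, against 0.149 to 0.195 in the other 3 groups, and genes with symbols in Rpl or Rps took 6.36% of counts in its replicate 2 against 10.0% in replicate 1. Over the 8 receptor genes the median replicate difference was 0.0364 in dKO at 48 h, 0.197 in WT at 48 h, 0.0747 in dKO at 24 h and 0.0422 in WT at 24 h. The part of this spread in the 48 h results was not tested.

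Some receptor genes share bases with other genes, and whether reads were assigned by strand is not given. Camta1 overlaps exons of Tnfrsf9 on the opposite strand and was not called by genotype at 48 h (0.33, adjusted p = 0.385) or at 24 h (-0.10, adjusted p = 0.960). Vamp1 overlaps Cd27 on the opposite strand, at group means of 5.13 to 6.61 CPM, and was not called either, at -0.18 (adjusted p = 0.652) and -0.36 (adjusted p = 0.881). Tnfrsf18 overlaps an antisense transcript that is not among the symbols counted.

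Genes whose pattern was most like that of a receptor were sought among 8669 tested genes with a mean of at least 50 counts, by Pearson's r of log2 CPM over the 8 libraries. The highest were Ell2 (0.989) and Nrn1 (0.982) for Tnfrsf4, Mrps9 (0.994) and Sec11c (0.991) for Tnfrsf18, and Itga6 (0.983) and Usp38 (0.975) for Cd28. For Tnfrsf9 they were Tmed3 and Rpp25l (both 0.985), for Tnfrsf1b Ftx (0.980) and Klhl6 (0.964), and for Cd27 Pea15a (0.953) and D1Ertd622e (0.952). For Icos they were Sgol1 (0.993) and Eno1b (0.992), and for Cd226 Wdr70 (0.996) and St3gal1 (0.995). These libraries share groups, depth and scaling, and the highest of 8669 values is high by selection.

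Ligands of the receptors were measured in the same T cells. Of 11 ligand genes 7 were tested, and Lta alone was called at each time, higher in the libraries labelled dKO. Of all tested genes 11.2% were called at 48 h and 0.432% at 24 h. In edgeR 4 of the 7 ligands had an unadjusted p below 0.05 at 48 h and 5 at 24 h. In the comparison over both times edgeR called 4 of the 7 higher and 0 lower, and DESeq2 3 and 0, where edgeR called 7.8% of all tested genes. Lta encodes lymphotoxin alpha, a ligand of TNFR2, and averaged 470 ± 25.4 CPM in the libraries labelled dKO at 48 h and 263 ± 10.5 CPM in WT at 48 h (SD, n = 2 each). At 24 h it averaged 395 ± 8.24 CPM in the libraries labelled dKO and 187 ± 12.8 CPM in WT (SD, n = 2 each). This gave a log2 fold change of 0.84 at 48 h (SE 0.15, adjusted p = 0.0147) and of 1.08 at 24 h (SE 0.15, adjusted p = 0.0156). The call at 48 h was lost without either library labelled dKO at 48 h, and that at 24 h without any 1 of the 6 libraries other than WT at 48 h, at adjusted p up to 0.191 and 0.281. The median of the 7 ligands was 0.49 at 48 h and 0.71 at 24 h.

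Of 24 genes of the TRAF and NF-kB arm, 2 rose and 0 fell at 48 h in the libraries labelled dKO, where 11.2% of all tested genes were called, so the count is not above the background. Nfkbia, which encodes the NF-kB inhibitor I-kappa-B alpha and is itself induced by NF-kB, rose by 0.93 (SE 0.19, adjusted p = 0.0175), and Traf1, an adaptor of TNF receptors, by 0.50 (SE 0.14, adjusted p = 0.0491). At 24 h edgeR and DESeq2 called 0 of the 24, with 7 at an unadjusted p below 0.05; Traf1 was at 0.75 (adjusted p = 0.0659) and Nfkbia at 0.79 (adjusted p = 0.178). The call of Nfkbia was lost without any 1 of the 4 libraries labelled dKO, and that of Traf1 without any of the 6 libraries other than WT at 48 h, with the replicate block, with no filter, with a mean of at least 50 counts and in DESeq2. At 24 h 7 of the 24 rose without WT replicate 1 or 2 at 48 h (of 368 and 371 genes called in all) and 3 with the 24 h libraries alone or with no filter. At 48 h 3 rose and 7 fell without WT replicate 1 (of 6521 called in all), and 4 rose without replicate 2 (of 1162). The median of the list was -0.02 at 48 h and 0.20 at 24 h.

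Of 21 genes listed as close to CD28, ICOS and CD226 in signalling, 1 rose and 1 fell at 48 h in the libraries labelled dKO. This again stands against 11.2% of all tested genes called. The list holds Pdk1, which encodes pyruvate dehydrogenase kinase 1 and is not itself a gene of that signalling. Bcl10 rose by 0.64 (SE 0.14, adjusted p = 0.0219) and Malt1 fell by 0.70 (SE 0.17, adjusted p = 0.0301), 2 partners in the complex that carries antigen receptor and CD28 signals to NF-kB. At 24 h edgeR and DESeq2 called 0 of the 21, with 3 at an unadjusted p below 0.05, and the smallest p belonged to Pik3cd (-0.52, adjusted p = 0.212) and Dgka (-0.66, adjusted p = 0.357). The call of Bcl10 was lost without any 1 of the 4 libraries labelled dKO, and that of Malt1 also without either WT 24 h library and with scaling by total counts alone. At 24 h 3 of the 21 fell without WT replicate 1 or 2 at 48 h and 2 fell with the 24 h libraries alone. At 48 h 3 rose and 10 fell without WT replicate 1 (of 6521 genes called in all). The median of the list was -0.19 at 48 h and -0.20 at 24 h.

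Of 7 inhibitory counterparts, 0 rose and 2 fell at 48 h in the libraries labelled dKO, where 11.2% of all tested genes were called. Pdcd1, encoding PD-1, fell by 0.64 (SE 0.14, adjusted p = 0.0231). Tigit, which competes with CD226 for its ligands, fell by 0.73 (SE 0.18, adjusted p = 0.0315). Both calls were lost with scaling by total counts alone and without any 1 of the 4 libraries labelled dKO, that of Tigit also without either WT 24 h library. At 24 h edgeR and DESeq2 called 0 of the 7, with 3 at an unadjusted p below 0.05, and edgeR called 1 lower without WT replicate 1 or 2 at 48 h, with the 24 h libraries alone or with no filter; Tigit was at -0.73 (adjusted p = 0.183) and Cd96 at -0.38 (adjusted p = 0.630). Pdcd1 had the opposite order at 24 h, where it was not called. It averaged 111 ± 5.64 CPM there in the libraries labelled dKO and 87.6 ± 4.67 CPM in WT (SD, n = 2 each). The median of the list was -0.21 at 48 h and -0.13 at 24 h.

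Of 10 other TNF receptor genes tested, 0 rose and 2 fell at 48 h in the libraries labelled dKO, where 11.2% of all tested genes were called. Tnfrsf23 and Tnfrsf22, mouse decoy receptors of TRAIL, fell by 1.10 (SE 0.26, adjusted p = 0.0276) and 0.94 (SE 0.26, adjusted p = 0.0468), but neither was called by DESeq2. At 24 h edgeR and DESeq2 called 0 of the 10, with 0 at an unadjusted p below 0.05. Of 11 other costimulatory or adhesion receptors tested, 1 rose and 0 fell at 48 h, a count near the same share. Cd2 rose by 0.56 (SE 0.15, adjusted p = 0.0435), also not called by DESeq2, under a mean minimum of 50 counts, or with replicate number as a block. Its means at 24 h had the opposite order, at 73.5 ± 4.62 CPM in the libraries labelled dKO and 83.0 ± 0.859 CPM in WT (SD, n = 2 each). At 24 h 0 of these 11 were called by either tool, with 3 at an unadjusted p below 0.05, and 1 rose without WT replicate 1 or 2 at 48 h. The calls of Tnfrsf23, Tnfrsf22 and Cd2 were each lost without any 1 of the 7 libraries other than WT replicate 1 at 48 h. Of the calls at 48 h named from these lists, that of Lta held with the 48 h libraries alone, and those of Nfkbia, Traf1, Bcl10, Malt1, Pdcd1, Tigit, Tnfrsf23, Tnfrsf22 and Cd2 were lost there. The medians at 48 h and 24 h were -0.21 and -0.016 for the other TNF receptor genes and 0.15 and 0.087 for the other costimulatory or adhesion receptors.

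**Figure D4:**
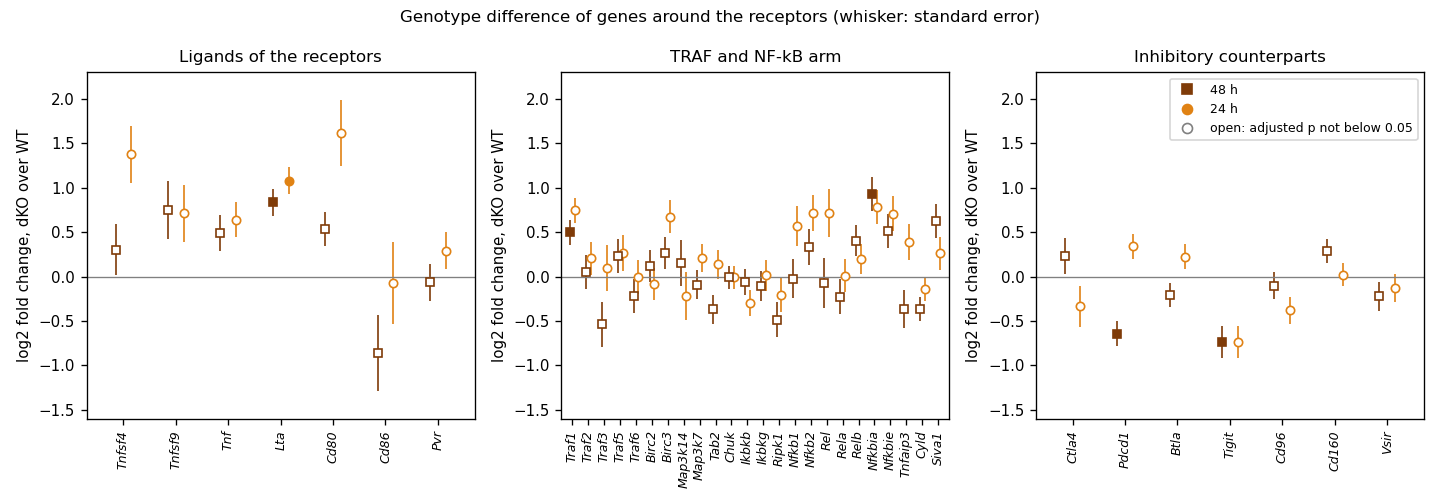
Log2 fold change, dKO over WT, of the tested ligands, of the TRAF and NF-kB genes and of the inhibitory counterparts, at 48 h and at 24 h, with standard errors from edgeR. Filled symbols are called: Lta at 0.84 and 1.08, Nfkbia at 0.93, Traf1 at 0.50, Pdcd1 at -0.64 and Tigit at -0.73.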

How the data were processed

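RNA was measured in 8 libraries of activated mouse CD8+ T cells. The deposited values are raw whole-number counts, 1 per gene symbol and library. Per the submitters' processing notes the tools were cutadapt 1.18 and Bowtie2 2.2.5 and the build mm10. Which program counted the reads, with which annotation, strand rule and molecular identifiers, is not given in the sources used here. A final unnamed row, equal to the sum of the other rows in each of the 8 libraries and so 50% of the column sum, was left out of totals and tests.

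A single model with 4 group means was fitted to the 8 libraries in edgeR 4.0.16 (R 4.3.3), after filterByExpr with a minimum count of 10 and TMM scaling. The quasi-likelihood F test was two-sided, and p was adjusted by Benjamini-Hochberg over 12742 genes. Its dispersion was 0.0246 in common, on 4 residual plus 5.76 prior degrees of freedom. SE, the standard error, was taken as the size of the log2 fold change divided by sqrt(F), and intervals (95%) use the total degrees of freedom. There were 6 comparisons: genotype at each time and over both, the interaction, and 48 h against 24 h in each genotype. log2 CPM used a prior count of 2. Alternatives were other scalings, other filters, a replicate block, fits of only the groups compared, DESeq2 1.42.0 and each library left out. The fit was tested on simulated data. The simulation gave each gene the same dispersion in all libraries, so it does not cover the larger replicate differences of WT at 48 h.

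The receptor genes and the lists of ligands, signalling genes and markers were chosen with earlier results of these data known. From each list up to 4 called genes with the smallest p are named per comparison, or the 2 smallest p where none was called. Ranges of counts and floors cover counting error only. Gene positions came from GENCODE M21.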

Additional observations from a re-analysis of the deposited data

Results flagged for a closer look

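Tnfrsf9 had both libraries labelled dKO above both WT libraries at 48 h (219 and 238 CPM against 196 and 165 CPM) and below both at 24 h (257 and 271 CPM against 272 and 279 CPM). The difference between the genotype effects at 48 h and at 24 h was 0.40 on the log2 scale (SE 0.22, 95% interval -0.09 to 0.89). It did not pass in edgeR's interaction test (unadjusted p = 0.0958, adjusted p = 0.457; over 14 alternatives adjusted p = 0.0429 to 0.801).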

How the results depend on the processing

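With 2 libraries a group, the calls depended on single libraries and on the spread shared between groups. Over the 704 alternative values of the receptor genes, direction and side of the threshold were kept in 616, a call was gained in 23 and lost in 54, and 11 changed sign. Those 11 were genes near 0: by genotype at 48 h Cd27 (0.012) and Icos (0.0088) with scaling by total counts alone, and Cd226 among genes with a mean of at least 50 counts (-0.050), without dKO 48 h replicate 1 (-0.0089) and without WT 48 h replicate 1 (-0.034; left-out libraries gave up to 0.043). For the interaction they were Cd28 (0.11), Icos (0.072) and Cd226 (0.12) with scaling by total counts alone, Cd28 without WT 24 h replicate 1 (0.017) or WT 48 h replicate 2 (0.019), and Cd27 without WT 48 h replicate 2 (-0.049). Left-out libraries gave interactions of -0.16 to 0.019 for Cd28 and -0.049 to 0.22 for Cd27. The causes were not tested.

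Receptor genes called moved from 1 at 48 h to 3 with total counts alone, 2 with a mean of at least 50 counts and 0 with only the groups compared, and from 2 over both times to 1 with total counts alone. With only the groups compared they were 8 over time in dKO and 0 in WT. Without 1 library they ranged from 0 to 4 at 48 h, 0 to 1 at 24 h, 1 to 4 over both times, 0 to 2 for the interaction, 0 to 4 over time in dKO and 2 to 6 in WT. Among all tested genes, calls were 2962 at 48 h, 206 at 24 h, 2264 over both times, 170 for the interaction and 1649 over time in dKO with no filter on low counts. With only the groups compared they were 444 at 48 h, 181 at 24 h, and 4546 in dKO and 31 in WT over time. Without 1 library they ranged from 15 to 6521 at 48 h, 13 to 371 at 24 h, 56 to 5606 over both times, 0 to 3459 for the interaction, and over time 32 to 3303 in dKO and 595 to 4212 in WT.

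Scaling by total counts alone shifted the median of all genes by 0.18 at 48 h, 0.19 for the interaction, -0.17 over time in dKO and -0.36 in WT. It called 2531 genes at 48 h (1615 higher, 916 lower, against 406 and 1024 with TMM), 739 over time in dKO (143 and 596, against 224 and 239) and 3366 in WT (725 and 2641, against 1003 and 446). Over both times it called 680 higher and 610 lower, against 291 and 703.

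Same-numbered libraries deviated together weakly at most (r = -0.076 to 0.17 across genes), so the numbers do not show a pairing. With a replicate block 1 receptor gene was called at 48 h, 1 at 24 h, 2 over both times, 2 over time in dKO and 4 in WT; the calls of Tnfrsf18 in dKO and Tnfrsf1b in WT over time were lost (adjusted p = 0.0508 and 0.0678).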

Other observations

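Genes around the receptors also differed between 48 h and 24 h. Of the 7 ligand genes tested, Cd80, a ligand of CD28 that T cells can make on activation, rose by 2.87 on the log2 scale in the libraries labelled dKO (SE 0.24, adjusted p = 0.000948) and by 3.95 in WT (SE 0.29, adjusted p = 0.000523). At 24 h it averaged only 2.29 ± 0.448 CPM in the libraries labelled dKO and 0.715 ± 0.181 CPM in WT (SD, n = 2 each). In WT at 24 h, 3 counts were 0.422 and 0.441 CPM, so the size of the WT rise rests on few counts. At 48 h Cd80 averaged 16.4 CPM in the libraries labelled dKO and 11.3 CPM in WT. Both calls of Cd80 held in all 15 alternatives. Of the 7 inhibitory counterparts, Ctla4, which encodes the inhibitory receptor for the same ligands as CD28, rose by 2.48 in the libraries labelled dKO (SE 0.23, adjusted p = 0.00106) and by 1.92 in WT (SE 0.22, adjusted p = 0.00221). Vsir, encoding VISTA, fell by 1.15 in the libraries labelled dKO (SE 0.17, adjusted p = 0.00633) and by 1.06 in WT (SE 0.16, adjusted p = 0.00264). Cd160 fell by 0.89 in the libraries labelled dKO (SE 0.13, adjusted p = 0.00841) and by 1.16 in WT (SE 0.14, adjusted p = 0.00221), and Pdcd1 fell in the libraries labelled dKO by 0.63 (adjusted p = 0.0482). In WT the mean of Pdcd1 rose instead, from 87.6 ± 4.67 to 112 ± 10.1 CPM (SD, n = 2 each), without a call.

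Over time, 3.63% of all tested genes were called in the libraries labelled dKO and 11.4% in WT. Of 24 genes of the TRAF and NF-kB arm, 0 rose and 3 fell over time in each genotype, a count near that share in WT, with a median of -0.21 in the libraries labelled dKO and -0.05 in WT, against -0.010 and 0.0018 over all tested genes. In the libraries labelled dKO they were Rel (-1.72, SE 0.28, adjusted p = 0.0114), Tnfaip3 (-1.19, SE 0.21, adjusted p = 0.0173) and Rela (-0.94, SE 0.19, adjusted p = 0.0313), and in WT Relb (-0.73, SE 0.17, adjusted p = 0.0232), Nfkbia (-0.74, SE 0.19, adjusted p = 0.0364) and Rela (-0.71, SE 0.19, adjusted p = 0.0411). Rel and Rela encode NF-kB subunits, and Tnfaip3 encodes A20, which dampens the pathway. Genes called in a single genotype had means that moved the same way in the other. In WT, Rel went from 34.4 ± 1.67 to 17.2 ± 8.91 CPM and Tnfaip3 from 9.76 ± 0.508 to 7.33 ± 0.753 CPM. In the libraries labelled dKO, Relb went from 19.6 ± 1.52 to 13.5 ± 1.25 CPM and Nfkbia from 126 ± 1.32 to 82.9 ± 2.33 CPM (SD, n = 2 each). Of 11 other costimulatory or adhesion receptors, 2 were called higher and 4 lower at 48 h in the libraries labelled dKO, and 3 higher and 4 lower in WT. The shares over all tested genes were the same 3.63% and 11.4%. Klrk1, encoding the stress ligand receptor NKG2D, rose by 2.13 in the libraries labelled dKO (SE 0.25, adjusted p = 0.00268) and by 2.18 in WT (SE 0.24, adjusted p = 0.00176). Cd5, a brake on antigen receptor signals, fell by 1.34 in the libraries labelled dKO (SE 0.16, adjusted p = 0.00316) and by 1.06 in WT (SE 0.16, adjusted p = 0.00273). Cd2 rose in the libraries labelled dKO by 1.29 (adjusted p = 0.00288), Slamf1 fell in WT by 1.26 (adjusted p = 0.00258), and Crtam fell by 1.03 in the libraries labelled dKO (adjusted p = 0.00663) and by 0.87 in WT (adjusted p = 0.00431). In the other genotype the means moved the same way. Cd2 went from 83.0 to 123 CPM in WT, and Slamf1 from 42.2 to 18.5 CPM in the libraries labelled dKO.

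Calls over time in the libraries labelled dKO for Rel, Tnfaip3, Rela, Vsir, Cd160, Pdcd1 and Crtam were lost without any 1 of the 4 libraries labelled dKO, those of Cd2 and Cd5 without 3 of them, and that of Pdcd1 also without either WT 24 h library, with the replicate block and with RLE size factors. Those of Relb, Nfkbia and Rela in WT were lost without either WT 24 h library, and those of Nfkbia and Rela also without any 1 of the libraries labelled dKO. In WT the calls of Relb and Rela were lost in DESeq2, and with the WT libraries alone those of Relb, Nfkbia, Rela, Tnfrsf21, Ctla4, Cd160, Vsir, Slamf1, Cd5 and Crtam were lost. Of the 21 genes listed as close to CD28, ICOS and CD226, edgeR called 0 over time in either genotype. In edgeR 8 in the libraries labelled dKO and 2 in WT had an unadjusted p below 0.05, and DESeq2 called 1 and 0. In the libraries labelled dKO, 7 were called higher and 5 lower with these libraries alone (of 4546 genes called in all), 6 and 3 without WT 48 h replicate 1 and 7 and 3 without replicate 2 (of 3303 each), 3 and 1 with no filter, and 0 and 2 with scaling by total counts alone. In WT, 0 and 4 were called with scaling by total counts alone (of 3366), 5 and 1 without WT 48 h replicate 1 (of 4212), 0 and 2 without replicate 2 (of 2986), and 1 and 0 with no filter. The smallest p belonged to Prkcq in both, at 0.66 in the libraries labelled dKO (adjusted p = 0.0574) and 0.54 in WT (adjusted p = 0.0596). Of the 10 other TNF receptor genes, Tnfrsf21 fell in WT (-1.05, adjusted p = 0.0268; not called by DESeq2) and stood at -1.16 in the libraries labelled dKO (adjusted p = 0.0526).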
